A study of Homo sapiens with 4 samples.

Results

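Most of the 67 genes described here encode subunits of RNA polymerase I or factors that build ribosomes in the nucleolus. All 67 were measured in stem-like MDA-MB-231 cells expressing an shRNA against KDM1A or a control shRNA. They were chosen by symbol, as every one of the 23228 gene rows whose name matched a fixed pattern of nucleolar gene names (POLR1A to POLR1E, UBTF, RRN3, NCL, NPM1, FBL, DKC1 and the numbered UTP, NOP, NOL, NOC, RRP and GNL series among others). Earlier results of these data were known when they were chosen. MDA-MB-231 is a widely used cell line of human breast cancer without hormone receptors, from which cells with high aldehyde dehydrogenase activity had been sorted with the ALDEFLUOR assay and grown in MammoCult medium. The KDM1A shRNA group (2 libraries) and the control shRNA group (2 libraries) both carried lentiviral vectors for stable expression of their hairpin, and the labels name no other KDM1A hairpin and no rescue. The labels do not state whether replicate libraries had separate cultures behind them, and p-values therefore reflect only how these libraries vary, possibly for technical reasons.

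Ribosome synthesis starts in the nucleolus, where RNA polymerase I transcribes the large precursor of the 18S, 5.8S and 28S ribosomal RNAs. Small nucleolar ribonucleoproteins (snoRNPs) modify the precursor, the small subunit processome folds and cuts its 18S part, and a separate series of factors assembles the large subunit around the 28S part. Demand for the pathway is high in proliferating tumour cells, and KDM1A, the target of the hairpin, is a histone demethylase that mostly represses transcription.

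Reads assigned to genes numbered 23902900 and 25761937 in KDM1A shRNA libraries 1 and 2, against 26923678 and 24250377 in control libraries 1 and 2. By counting error alone, 0 reads allow up to 3 counts, which is 0.111 to 0.126 CPM (counts per 1000000 gene reads) across the libraries. KDM1A itself had 561 and 649 reads in the KDM1A shRNA libraries and 4660 and 4059 in the controls, a level 7.02-fold lower (log2 fold change -2.81, SE 0.05, edgeR adjusted p = 2.2e-14), which checks the hairpin and not the cell line. All 8 genes listed as typical of MDA-MB-231 were well expressed, with 3 called higher in KDM1A shRNA and 5 lower. Their summed level was 10779 and 10721 CPM in KDM1A shRNA against 14104 and 13554 CPM in controls. That sum is dominated by FN1, at 2861 and 2766 CPM in KDM1A shRNA against 6345 and 5784 CPM in controls. Of 8 genes listed as absent or low in that line, 6 were tested, with 2 higher in KDM1A shRNA and 4 lower. The higher ones were ERBB2 (2151 and 2384 reads in KDM1A shRNA against 1834 and 1672 in the controls, log2 fold change 0.41) and GATA3 (0.36). Among the lower ones, CDKN2A, which lies in a deleted region of that line, had 13 and 19 reads in KDM1A shRNA but 323 and 329 in the controls. Its neighbour MTAP had 15 and 14 reads in KDM1A shRNA and 271 and 256 in the controls. Of 12 genes listed as typical of HEK293, the human kidney line commonly used to package lentivirus, 11 were tested and all 11 fell. The summed level of that list was 64.2 and 69.9 CPM in KDM1A shRNA against 325 and 337 CPM in controls, and its defining gene PAX2 was at 0 reads in each KDM1A shRNA library, against 6 and 5 in the controls; CDKN2A and MTAP are also on it. Of the 4 white blood cell markers, 1 was tested (CD14, which fell), with a summed level of 3.05 and 3.45 CPM against 5.19 and 6.47 CPM. Fibroblast markers rose in 3 of 4 and fell in 1, with sums of 108 and 101 CPM against 145 and 140 CPM. These reads go against the labelled line in both control libraries, and whether those hold another line or a mixture was not tested. The part of these differences in the results below was not tested either. In bulk RNA, fewer cells of a type and less RNA per cell cannot be told apart.

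The ribosome biogenesis genes differed little between the groups, with a few exceptions. Of the 67 members, 66 passed the filter on low counts, and 24 of these, or 36.4%, were called at an edgeR adjusted p under 0.05, with 14 higher and 10 lower in KDM1A shRNA. Over all 14012 genes tested the share called was 56.1%, with 27.3% higher and 28.8% lower. The members' median log2 fold change was 0.020, beside -0.00468 for all genes tested. Their changes were also small in size, with a median of 0.09 on the log2 scale regardless of direction, against 0.24 over all genes. Only 9 members (13.6%) were called with a change of 1.25-fold or more, a rule met by 33.7% of all genes, and 2 (POLR1A and UTP20) with 1.5-fold or more, against 19.3% of all genes. The member with the largest change, POLR1A, stayed short of 2-fold, whereas 11.6% of all genes tested were called with 2-fold or more. The members' median level was higher than that of all genes tested (6.36 against 4.85 on the log2 CPM scale), and their median SE was smaller (0.05 against 0.07). These values describe a list and do not test it against other genes.

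**Figure D1:**
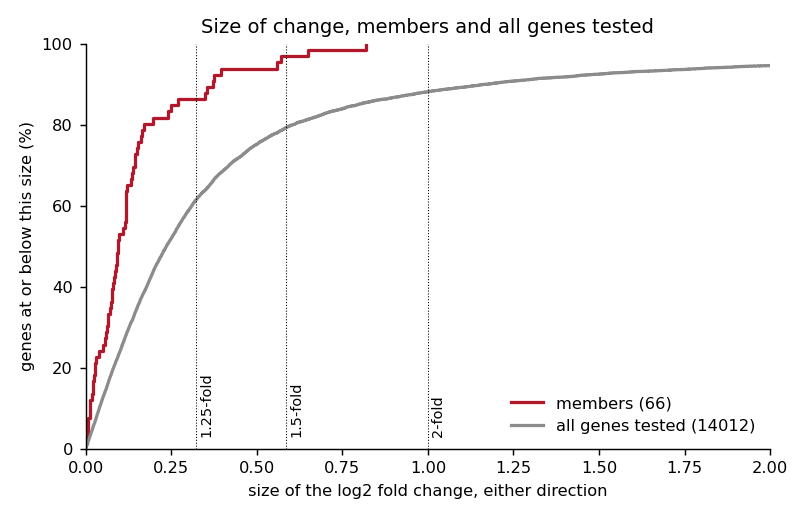
Cumulative share of genes (vertical axis, %) by the size of their log2 fold change in either direction (horizontal axis, shown up to 2; dotted lines at 1.25-, 1.5- and 2-fold) for the 66 tested members (red) and all 14012 genes tested (grey). The members' curve lies above that of all genes, with 2 members at 1.5-fold or more and none at 2-fold.

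The sum over all members gave the same picture. Together the 67 genes took 0.758% (95% Wilson interval 0.755% to 0.762%) and 0.752% (0.748% to 0.755%) of gene reads in KDM1A shRNA libraries 1 and 2, and 0.747% (0.744% to 0.750%) and 0.727% (0.724% to 0.730%) in control libraries 1 and 2. The intervals cover counting error only. The groups did not overlap, but the gap between them was smaller than the gap between both controls. With 2 libraries a group the smallest two-sided p of an exact permutation test is 0.333, and these sums were not tested. By role, the summed level of the polymerase I subunits was highest relative to the controls, at 484 and 490.5 CPM in KDM1A shRNA against 439 and 418 CPM (114%), a sum that includes POLR1A. Among the roles in ribosome synthesis, large subunit factors were lowest, at 1425 and 1427 CPM against 1504 and 1454 CPM (96.4%). That sum includes RRP1B and GNL3, which were lower, while the median log2 fold change of these factors was 0.08 and 11 of 19 estimates were positive. Across the members one by one, the CPM values of the groups did not overlap in 45 of 66 (68.2%), against 77.7% of all genes tested. Of the 42 members that were not called, estimates lay between -0.12 and 0.17 on the log2 scale, and the 95% interval stayed within 1.25-fold of no change in 40. The exceptions were NOL9 (interval 0.01 to 0.33) and the pseudogene RRP7B (-0.20 to 0.44).

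The number of calls depended on single libraries, and over all genes tested it also fell without either KDM1A shRNA library. Fewer members were called without either 1 of the KDM1A shRNA libraries. More were called without either control library, while the share over all genes tested changed little. Without control library 1 these calls were mostly higher, and without control library 2 they were about evenly split. The split also moved with scaling, to 11 higher and 13 lower with upper quartile normalization or a minimum mean of 5 CPM. In each of these settings 36.4% of the members were called, against 56.3% and 58.1% of all genes tested. DESeq2 called 9 higher and 5 lower, or 21.2% of the members, against 43.6% of all genes tested. A core of 11 members was called in the same direction under each of the 12 other settings run, 7 of them higher (POLR1A, UTP20, NOL6, RRP36, UTP23, NOP56 and RRP7A) and 4 lower (RRP1B, POLR1D, RRN3 and RRP1). The share of all genes called in every setting was not computed. The descriptions below turn on these 11 members.

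**Figure D2:**
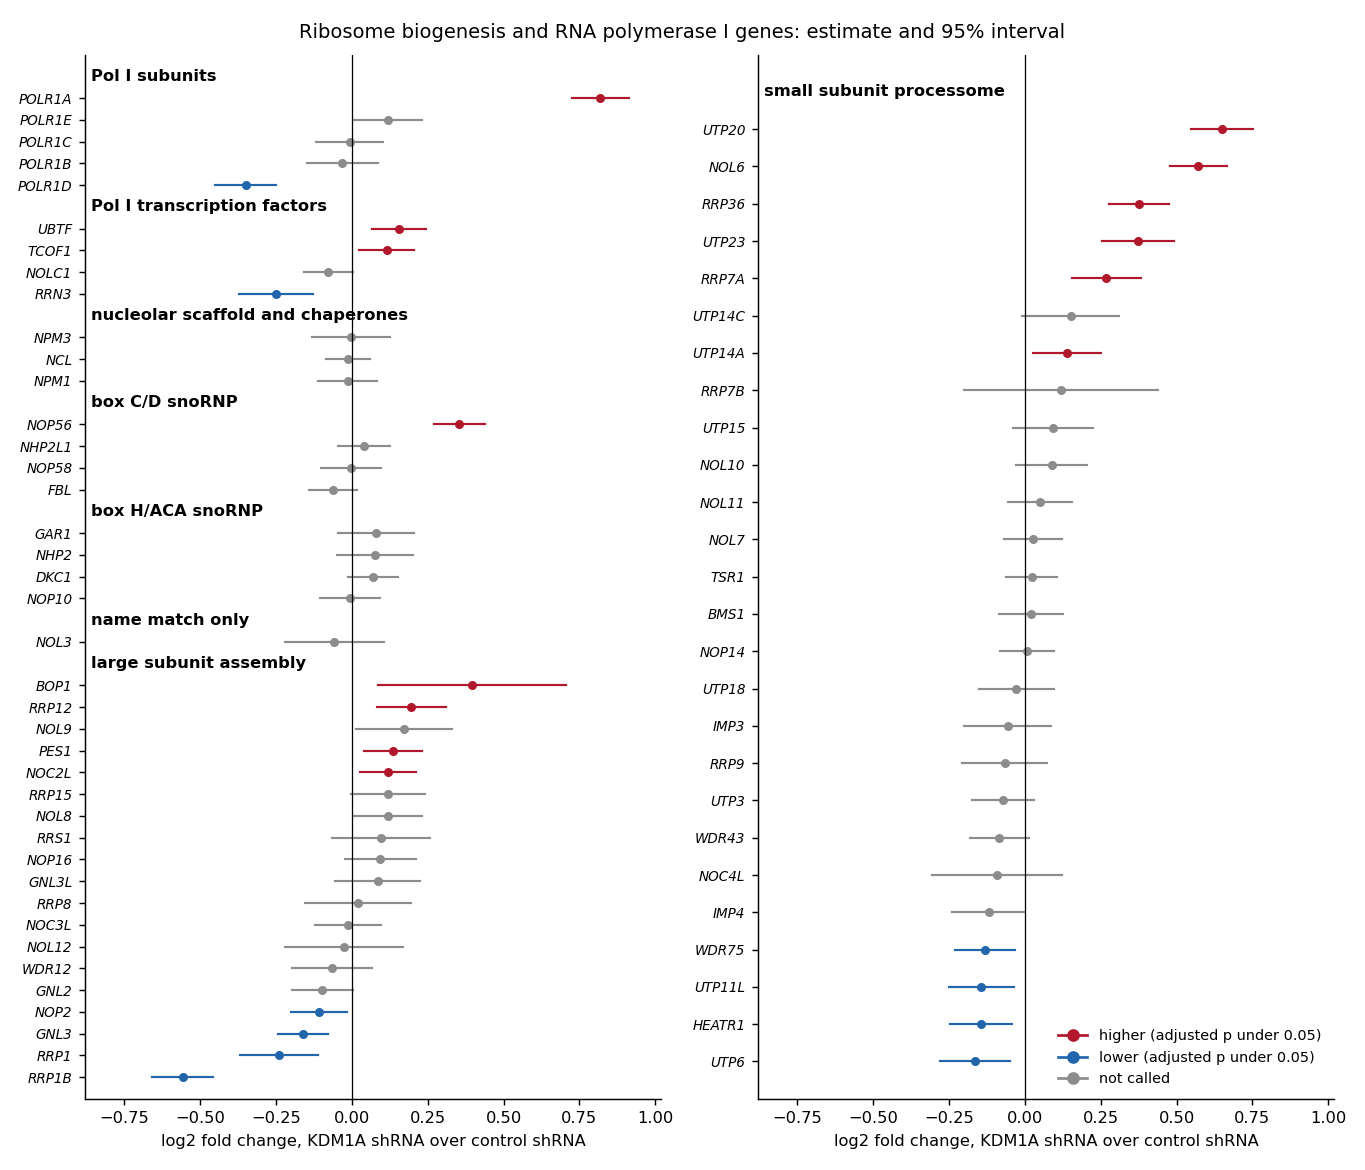
Log2 fold change, KDM1A shRNA over control shRNA (horizontal axis), of the 66 tested members grouped by role, with 95% intervals from the edgeR fit (2 libraries per group). Red points were called higher, blue points lower and grey points were not called. Most points lie close to 0, and POLR1A (0.82), UTP20 (0.65), NOL6 (0.57) and RRP1B (-0.56) lie farthest from it.

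RNA polymerase I subunits moved in different directions. POLR1A encodes the largest, catalytic subunit of the enzyme (chromosome 2, 86247339 to 86333278, minus strand, GRCh37). It had 183 and 182.5 CPM in KDM1A shRNA libraries 1 and 2, against 107 and 101 CPM in controls 1 and 2. Both KDM1A shRNA libraries lay far above both controls. The level was 1.77-fold higher (95% interval 1.66 to 1.88, edgeR adjusted p = 1.1e-09), which was the largest change of any member, and its log2 fold change stayed between 0.78 and 0.86 under the other settings. The 300 bases around its RefSeq start, 250 before and 50 after, are shown as the promoter of the member with the largest rise (chr2:86105837-86106136, minus strand, GRCh38.p14, read 5′ to 3′). It holds 44.7% G and C and 19 CG dinucleotides. None of the motifs searched below occurs in it, and it therefore has no capitals.

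POLR1A: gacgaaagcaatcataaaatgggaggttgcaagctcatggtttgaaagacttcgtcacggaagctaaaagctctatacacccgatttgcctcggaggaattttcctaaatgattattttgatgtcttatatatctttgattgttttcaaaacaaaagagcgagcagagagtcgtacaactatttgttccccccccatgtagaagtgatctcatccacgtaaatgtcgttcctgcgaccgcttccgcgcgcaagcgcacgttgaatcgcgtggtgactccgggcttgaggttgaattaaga

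POLR1B, the second-largest subunit that forms the active centre together with POLR1A, stood at 87.9 and 94.2 CPM in KDM1A shRNA against 97.5 and 88.5 CPM in controls. Its groups overlapped, and the interval of its fold change was 0.902 to 1.06. POLR1C and POLR1D form a heterodimer that RNA polymerases I and III share. POLR1C overlapped between groups (64.6 and 66.9 against 67.2 and 65.0 CPM; fold change interval 0.922 to 1.07). POLR1D (chromosome 13, 28194879 to 28318374, plus strand, GRCh37) had 85.0 and 83.1 CPM in KDM1A shRNA and 109.8 and 104 CPM in controls, with no overlap. It was 1.27-fold lower (log2 fold change -0.35, SE 0.05, edgeR adjusted p = 1.9e-05). POLR1E, a subunit involved in initiation and elongation, had 63.7 and 64.0 CPM against 58.0 and 59.7 CPM and was not called (edgeR adjusted p = 0.064).

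Of 4 factors that act with the polymerase at ribosomal DNA, 2 rose and 1 fell (75% called, against 56.1% of all genes tested). Their changes had a median size of 0.13 on the log2 scale regardless of direction, against 0.12 for the 5 subunits. RRN3, which joins the enzyme to the promoter-bound selectivity complex (chromosome 16, 15153890 to 15188168, minus strand, GRCh37), had 44.7 and 44.3 CPM in KDM1A shRNA against 54.5 and 51.3 CPM in controls. It was 1.19-fold lower (log2 fold change -0.25, SE 0.06, edgeR adjusted p = 0.0019). It has near-identical pseudogene copies, RRN3P3 among them, that the counting could split from it, so its level is less certain. UBTF, the upstream binding factor that covers active ribosomal DNA, had 129.6 and 129 CPM against 116 and 117 CPM. That was 1.11-fold higher (edgeR adjusted p = 0.0056), but it was not called when either KDM1A shRNA library was left out (adjusted p up to 0.084). TCOF1 (treacle), a partner of UBTF in ribosomal DNA transcription, had 166 CPM in both KDM1A shRNA libraries against 149 and 157 CPM. It was 1.08-fold higher (edgeR adjusted p = 0.031), but lost the call under 6 of the 12 other settings (adjusted p up to 0.19). NOLC1, a nucleolar phosphoprotein and chaperone of snoRNPs, had 448 and 438 CPM against 479 and 456 CPM and was not called (edgeR adjusted p = 0.091).

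The nucleolar scaffold proteins and chaperones did not pass the test, and their intervals were narrow. Nucleolin (NCL), an RNA-binding protein that also acts as a histone chaperone, stood at 1099.6 and 1067 CPM in KDM1A shRNA and 1110.4 and 1074 CPM in controls (fold change interval 0.942 to 1.04). Nucleophosmin (NPM1), the scaffold of the granular component where ribosomal subunits mature, stood at 401 and 407 CPM against 429.6 and 386 CPM (interval 0.926 to 1.06). NPM3, a smaller member of the same family, stood at 48.4 and 51.9 CPM against 48.8 and 51.8 CPM (interval 0.913 to 1.09). All 3 genes overlapped between groups. NPM1 differed more between the control libraries than between the group means, and it was called lower without control library 2 (log2 fold change -0.089) and higher without control library 1 (0.065).

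In the snoRNPs, 1 of 8 core proteins was called, against 56.1% of all genes tested. Box C/D snoRNPs methylate ribosomal RNA and consist of FBL, the methyltransferase, with NOP56, NOP58 and the RNA-binding NHP2L1. NOP56 (chromosome 20, 2633239 to 2639039, plus strand, GRCh37) had 234.4 and 230.2 CPM in KDM1A shRNA against 179 and 185 CPM in controls, with no overlap. It was 1.28-fold higher (log2 fold change 0.35, SE 0.04, edgeR adjusted p = 2.3e-06). Its paralog and partner NOP58 overlapped between groups, at 102 CPM in both KDM1A shRNA libraries and 105 and 98.9 CPM in controls (fold change interval 0.931 to 1.07). FBL had 233 and 229 CPM against 243 and 240.0 CPM (0.906 to 1.01), and NHP2L1 had 164 and 162 CPM against 157 and 160 CPM (0.969 to 1.09). NOP56 also carries snoRNA genes within its span, and the box C/D RNA SNORD110 inside it was the best covered, with 72 and 69 reads in KDM1A shRNA against 61 and 54 in controls (log2 fold change 0.33, SE 0.19, edgeR adjusted p = 0.16). In total 18 snoRNA and small Cajal body RNA genes of the files lie inside members on the same strand, and the other 17 had at most 11 reads in any library. The NOP56 promoter (chr20:2652382-2652681, plus strand, GRCh38.p14) is shown as that of the snoRNP protein that rose, with the GC and CCAAT boxes in capitals.

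NOP56: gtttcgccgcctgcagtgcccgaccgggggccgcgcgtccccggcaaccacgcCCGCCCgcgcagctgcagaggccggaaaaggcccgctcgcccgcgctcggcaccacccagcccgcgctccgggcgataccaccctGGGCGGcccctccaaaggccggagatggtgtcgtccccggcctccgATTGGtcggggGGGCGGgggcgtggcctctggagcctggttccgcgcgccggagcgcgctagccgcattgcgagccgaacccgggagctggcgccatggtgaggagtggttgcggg

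Box H/ACA snoRNPs, which convert uridine to pseudouridine, consist of the synthase DKC1 with GAR1, NHP2 and NOP10. DKC1 had 192 and 188 CPM in KDM1A shRNA against 181 CPM in both controls, without overlap, but was not called (edgeR adjusted p = 0.13). The log2 fold changes of GAR1 (0.08), NHP2 (0.08) and NOP10 (-0.01) were not called either. NHP2 and NOP10 overlapped between groups.

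The small subunit processome held UTP20 and NOL6, the members with the largest rises after POLR1A. Of its 26 members, 6 rose and 4 fell (38.5% called, against 56.1% of all genes tested), with a median log2 fold change of 0.021. UTP20, a very large scaffold protein (chromosome 12, 101673883 to 101780396, plus strand, GRCh37), had 114 and 116 CPM in KDM1A shRNA against 75.7 and 71.0 CPM in controls. It was 1.57-fold higher (log2 fold change 0.65, SE 0.05, edgeR adjusted p = 4.0e-08). NOL6, known in yeast as Utp22 (chromosome 9, 33461351 to 33473928, minus strand, GRCh37), had 133 and 134 CPM against 88.1 and 91.6 CPM. That was a 1.49-fold rise (0.57, SE 0.04, edgeR adjusted p = 5.9e-08). For both genes the KDM1A shRNA libraries lay well above the controls. RRP36, required for early cleavages of the precursor, had 104 and 105 CPM against 82.2 and 78.9 CPM and was 1.30-fold higher (edgeR adjusted p = 7.6e-06). The promoters of UTP20 (chr12:101279855-101280154, plus strand, GRCh38.p14) and NOL6 (chr9:33473875-33474174, minus strand, GRCh38.p14) are given as those of the members with the largest rises after POLR1A. Both carry an E-box. Capitals mark the E-box and the other motifs searched.

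UTP20: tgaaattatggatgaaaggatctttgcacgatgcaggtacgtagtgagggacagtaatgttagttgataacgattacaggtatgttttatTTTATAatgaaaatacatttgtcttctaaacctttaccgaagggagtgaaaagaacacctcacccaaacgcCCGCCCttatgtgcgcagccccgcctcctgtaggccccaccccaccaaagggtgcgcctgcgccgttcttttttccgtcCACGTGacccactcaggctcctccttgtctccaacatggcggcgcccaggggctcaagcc
NOL6: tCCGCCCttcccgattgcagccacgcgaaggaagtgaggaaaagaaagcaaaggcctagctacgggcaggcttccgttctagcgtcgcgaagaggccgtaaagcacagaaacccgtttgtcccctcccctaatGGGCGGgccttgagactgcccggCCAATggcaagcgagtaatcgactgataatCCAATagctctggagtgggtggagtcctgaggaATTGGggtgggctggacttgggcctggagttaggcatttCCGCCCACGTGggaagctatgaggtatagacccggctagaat

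The remaining processome members called in all settings, UTP23 and RRP7A, were singled out after their values were seen. UTP23 (chromosome 8, 117778744 to 117861702) had 55.9 and 55.2 CPM in KDM1A shRNA against 43.1 and 42.7 CPM in controls, a 1.30-fold rise (edgeR adjusted p = 4.5e-05). Its annotated exons overlap RAD21 and EIF3H on the other strand, and RAD21 was higher too (log2 fold change 0.26, edgeR adjusted p = 2.2e-05), while EIF3H was not called (-0.05). Since no source used here gives the strand setting of the counting, reads of UTP23 and of these partners cannot be told apart. RRP7A had 67.1 and 70.2 CPM against 56.1 and 58.0 CPM, a rise of 0.27 on the log2 scale (SE 0.05, edgeR adjusted p = 0.00057). RRP7B, its near-identical pseudogene, had 117 and 155 reads against 141 and 116, so RRP7A reads could be shared with it.

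Falls in the processome were smaller and less firm. UTP6 had 77.9 and 80.8 CPM in KDM1A shRNA against 93.2 and 84.7 CPM in controls and was 1.12-fold lower (edgeR adjusted p = 0.017). HEATR1 (-0.15), known in yeast as Utp10, UTP11L (-0.14) and WDR75 (-0.13), which in yeast is Utp17, were lower by similar log2 fold changes with SEs of 0.05. Each of these 4 calls was lost in DESeq2, without control library 1 and without either KDM1A shRNA library. Annotated exons of HEATR1 overlap LGALS8 on the other strand, and LGALS8 was lower too (log2 fold change -0.19, edgeR adjusted p = 0.0012). With the strand setting not given, reads of HEATR1 and LGALS8 cannot be told apart. UTP14A was higher (0.14, edgeR adjusted p = 0.035) and lost its call under 6 of the 12 settings. Its retrogene copy UTP14C, whose exons overlap those of ALG11, had 29.5 and 28.9 CPM against 27.8 and 24.7 CPM and was not called; reads of near-identical copies are uncertain. The proteins of the U3 snoRNA complex, which anchors the processome, were not called, with log2 fold changes of -0.06 for IMP3, -0.12 for IMP4 and -0.07 for RRP9. The GTPase BMS1 (0.02), its relative TSR1 (0.02) and NOP14 (0.01) were likewise not called, and NOL7, NOL10, NOL11, UTP3, UTP15, UTP18 and WDR43 lay, also uncalled, between NOC4L (-0.09) and RRP7B (0.12).

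**Figure D3:**
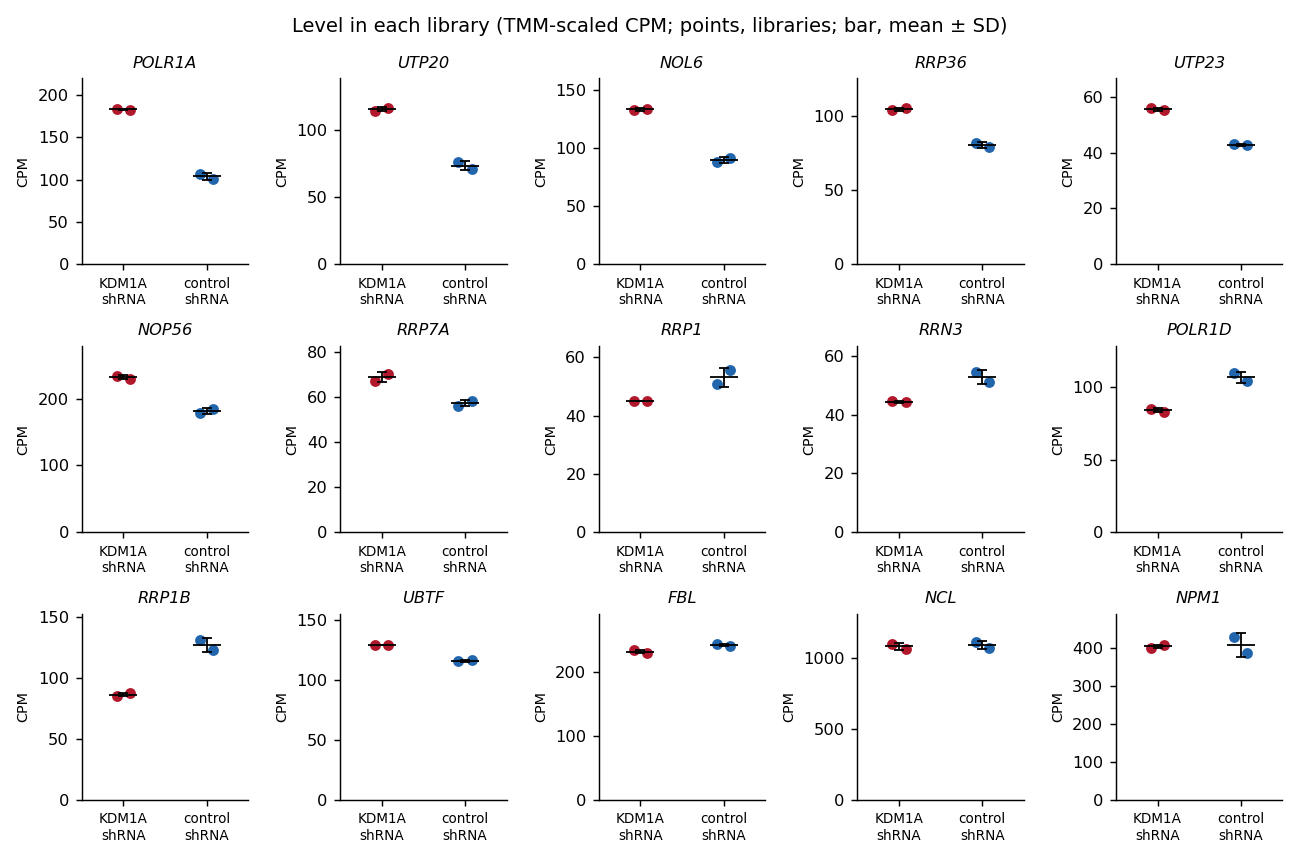
TMM-scaled CPM (vertical axes, from 0) in each KDM1A shRNA library (red, left) and control shRNA library (blue, right) for the 11 members called in every setting and for UBTF, FBL, NCL and NPM1. Points are libraries and bars give mean ± SD of 2 libraries; groups are separate in the first 11 panels, UBTF and FBL, and overlap for NCL and NPM1.

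Large subunit factors fell and rose in equal number, with 4 higher and 4 lower of 19 (42.1% called against 56.1% of all genes tested). Their median log2 fold change was 0.08. RRP1B, a nucleolar protein that also binds chromatin (chromosome 21, 45079441 to 45115960, plus strand, GRCh37), had 85.1 and 87.1 CPM in KDM1A shRNA against 131 and 123 CPM in controls. It was 1.47-fold lower (log2 fold change -0.56, SE 0.05, edgeR adjusted p = 1.5e-07), the largest fall of any member. Its paralog RRP1, which lies close by on the same chromosome (45209394 to 45225174, plus strand), had 45.0 CPM in both KDM1A shRNA libraries against 50.9 and 55.5 CPM. It was 1.18-fold lower (-0.24, SE 0.06, edgeR adjusted p = 0.0033). RRP1B and RRP1 had no overlap between groups, and their calls held without each library.

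GNL3, or nucleostemin, a GTP-binding nucleolar protein known for its abundance in stem cells and tumour cells, had 287 and 290.5 CPM in KDM1A shRNA against 333 and 313 CPM in controls. It was 1.12-fold lower (log2 fold change -0.16, SE 0.04, edgeR adjusted p = 0.0028), and was not called when either KDM1A shRNA library was left out (adjusted p up to 0.074). Its relatives GNL2 (-0.10) and GNL3L (0.08) were not called. RRP12, a HEAT-repeat protein that in yeast serves export of both subunits, had 70.3 and 74.2 CPM against 61.6 and 64.6 CPM. It was 1.15-fold higher (edgeR adjusted p = 0.0059), but was not called when KDM1A shRNA library 2 was left out (adjusted p = 0.12).

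PES1, BOP1 and WDR12 form the PeBoW complex, which is needed to process the large subunit RNA. PES1 had 98.7 and 98.6 CPM in KDM1A shRNA against 89.9 and 89.6 CPM in controls and was higher (0.14, edgeR adjusted p = 0.018), but was not called in DESeq2 or when either KDM1A shRNA library was left out. BOP1 had only 171 and 153 reads in KDM1A shRNA against 140 and 113 in controls, and its rise of 1.32-fold had a wide interval of 1.06 to 1.63 (edgeR adjusted p = 0.030). That call was lost in DESeq2, without control library 2 and without KDM1A shRNA library 1. WDR12 overlapped between groups and was not called (-0.07, SE 0.06). NOC2L, which also binds histones, was 1.09-fold higher (edgeR adjusted p = 0.028) and the rRNA methyltransferase NOP2 1.08-fold lower (edgeR adjusted p = 0.045), and each lost its call under 5 of the 12 settings. The other 8 uncalled factors, RRS1, NOC3L, NOP16, NOL8, NOL9, NOL12, RRP8 and RRP15, lay between -0.03 and 0.17.

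The pattern also takes in a pair of genes with other known functions. NOL3 encodes ARC, a repressor of apoptosis, and was not called (19.8 and 20.2 CPM in KDM1A shRNA against 21.0 and 20.7 CPM in controls). NOL4 is the member that failed the filter on low counts, with 1 read in each KDM1A shRNA library against 3 and 6 in the controls. Leaving both out left the counts at 14 higher and 10 lower.

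The motifs searched were the E-box CACGTG, bound by MYC with MAX and by other factors, the ETS core CCGGAAG, the NRF1 core, the CCAAT box, the GC box GGGCGG and the TATA box TATAAA, on both strands. RefSeq promoter windows were found for 55 members, and a gene was counted where any of its listed starts held the letters. An E-box occurred in 18 of 55 members (32.7%), against 12.4% of the 10654 tested genes with a window and 8.8% of all 27305 genes with a window. By single windows of equal length the shares were 26.9% and, over all windows, 7.3%. It stood in 4 of 10 members called higher, 2 of 9 called lower and 12 of 35 not called, so carriers were found in each class. UTP20 had its E-box starting 10 bases before the start and NOL6 from base 14 after it, where its first letter is also the last of a GC box. The ETS core occurred in 19 of 55 members (34.5%) against 21.6% of tested genes, and 16 of these carriers were members not called. The NRF1 core (3 of 55, 5.5% against 2.5%), CCAAT box (36.4% against 43.4%), GC box (72.7% against 76.7%) and TATA box (1 of 55, 1.8% against 8.8%) make up the rest. The only TATA box match, in UTP20, is on the other strand (TTTATA) and begins 160 bases before the start. A match of letters is a description, and no binding was measured.

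**Figure D4:**
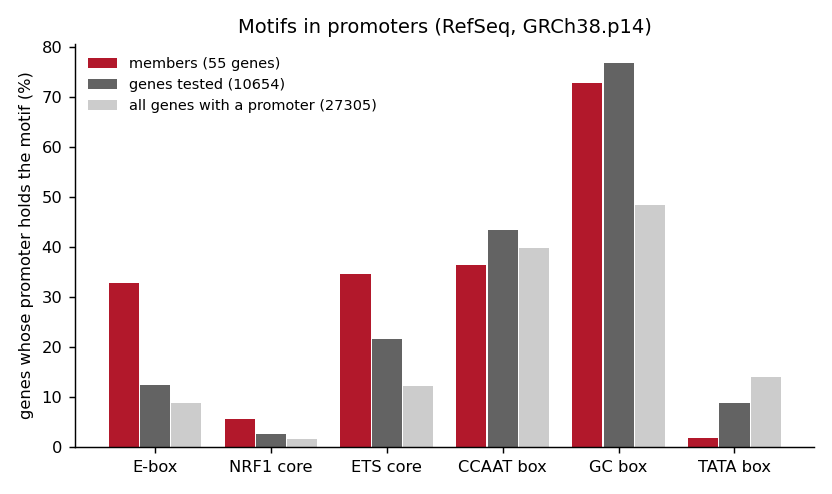
Share of genes (%) with each motif in any RefSeq promoter window of 300 bases, for 55 members (red), 10654 tested genes (dark grey) and all 27305 genes with a window (light grey). E-box and ETS core were more frequent among the members (32.7% and 34.5%) than among tested genes (12.4% and 21.6%).

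The members' values were also set beside those of their genomic neighbours. For each member the nearest 5 tested genes on each side were taken from the GRCh37 annotation, in which 95.8% of tested genes were placed. Across the 66 members, the log2 fold change and the median of the neighbours had a Pearson r of 0.056 and a Spearman rho of 0.027, a description over genes that share libraries. POLR1A rose while the median of its 10 neighbours was -0.21, with 4 neighbours higher and 5 lower. Around RRP1B the median was -0.01, with 4 higher and 4 lower. The highest neighbour median of any member was that of TCOF1, at 0.34 (5 of 10 higher, 2 lower). UTP23 and BOP1, both on chromosome 8, also stood among neighbours that were higher. Their medians were 0.32 (7 of 10 higher, 2 lower) and 0.27 (5 higher and 0 lower, 10 neighbours). The neighbours of UTP23 include RAD21 and EIF3H, whose exons overlap its own, so their reads may not be separate from those of UTP23. RRN3 stood among lower neighbours, with a median of -0.17 and 7 of 10 lower. So did HEATR1 (median -0.35, 1 of 10 higher and 7 lower) and UTP6 (-0.19, 3 of 10 higher and 6 lower). The neighbours of HEATR1 include LGALS8, whose exons overlap its own. NOC2L, itself called higher, had the lowest neighbour median of any member, at -0.42 (2 of 7 higher, 3 lower). Over all genes tested 27.3% were called higher and 28.8% lower. The part of these neighbourhoods in those values was not tested.

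**Figure D5:**
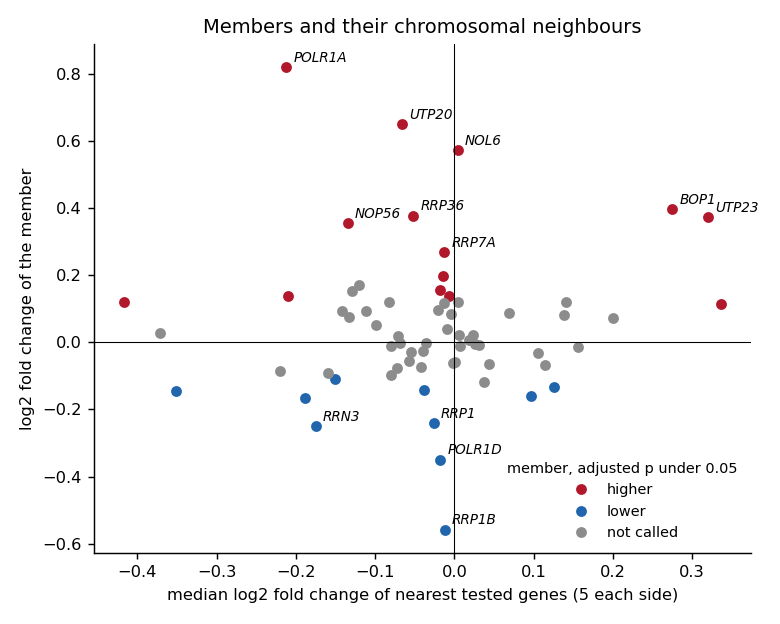
Log2 fold change of each of 66 members (vertical axis) against the median log2 fold change of its nearest tested genes, 5 on each side (horizontal axis); colours give the member's own call. POLR1A (0.82) lies over a neighbour median of -0.21, and UTP23 and BOP1 lie at neighbour medians of 0.32 and 0.27.

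Other genes of the pathway were taken from lists that the pattern does not cover. Over the 5 lists of polymerase I partners, processome genes, pre-60S factors, exosome and snoRNP assembly factors, 25 of 114 genes were higher and 29 lower (47.4% called against 56.1% of all genes tested), with a median log2 fold change of 0.020. Among 14 further polymerase I subunits and partners 5 rose and 4 fell (64.3% called). POLR2L, a small subunit of all RNA polymerases, had 154 and 144 CPM in KDM1A shRNA against 108 and 112 CPM in controls (0.44, SE 0.05). POLR2K, another shared subunit (0.27), and the polymerase I subunit CD3EAP (0.35) also rose. The TATA-binding protein TBP, which the promoter selectivity complex of polymerase I contains, was lower (-0.37, SE 0.08, edgeR adjusted p = 0.00094).

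Among 30 other processome genes 8 rose and 9 fell (56.7% called, median 0.038). The RNA acetyltransferase NAT10 (0.26) and the helicase DDX52 (0.29) rose, and NGDN (-0.36) fell. Among 47 other pre-60S factors 9 rose and 9 fell (38.3% called, median 0.027). GLTSCR2, also called NOP53, had 69.8 and 68.1 CPM in KDM1A shRNA against 103 and 109 CPM in controls, a 1.53-fold fall (edgeR adjusted p = 8.4e-08). RSL1D1 (-0.30) fell and the helicase DDX27 (0.30) rose. In the RNA exosome, which trims ribosomal RNA ends, 2 of 15 genes rose and 4 fell (40.0% called), with the catalytic DIS3 (-0.30) and the helicase SKIV2L2 (-0.33) lower and the nuclease EXOSC10 (0.24) higher. Of 8 snoRNP assembly factors 1 rose (ZNHIT6, 0.17, though with an adjusted p of 0.12 when KDM1A shRNA library 2 was left out) and 3 fell, so 4 of 8 were called, NUFIP1 (-0.51) and PIH1D1 (-0.27) among them.

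RNA polymerase III, which makes the 5S ribosomal RNA, was higher in 7 and lower in 4 of 21 genes (52.4% called, median -0.029), with the initiation factor BRF1 (0.42) higher and GTF3C3 (-0.55) lower. Of 7 genes specific to RNA polymerase II, 2 rose and 1 fell (42.9% called, against 56.1% of all genes tested). POLR2A, its largest subunit, had 254 and 250 CPM in KDM1A shRNA against 212 and 200 CPM in controls (0.29, SE 0.04, edgeR adjusted p = 2.7e-05). POLR2C was lower (-0.20), with an adjusted p of 0.085 when KDM1A shRNA library 1 was left out. POLR2J was higher (0.30), with an adjusted p of 0.084 when KDM1A shRNA library 2 was left out. Of 14 snoRNA host genes listed 12 were tested, and 2 rose and 3 fell (41.7% called). The noncoding host GAS5 had 62.6 and 64.1 CPM against 96.1 and 87.1 CPM (-0.53, SE 0.06), SNHG8 was lower (-0.28) and SNHG4 higher (0.55).

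The 5S RNP carries RPL5 and RPL11, which bind MDM2 when ribosome assembly is disturbed. RPL5 had 657 and 649 CPM in KDM1A shRNA against 797 and 790 CPM in controls (-0.28, SE 0.03) and RPL11 had 558 and 552 CPM against 709 and 646 CPM (-0.29, SE 0.04). In this list of 5 genes 4 fell (80% called, against 56.1% of all genes tested). MDM2 was lower (-0.19, edgeR adjusted p = 0.0034), with an adjusted p of 0.059 when KDM1A shRNA library 2 was left out. MYC, the transcription factor best known for driving ribosome biogenesis, had 302 and 307 CPM against 359 and 380 CPM and was 1.21-fold lower (-0.28, SE 0.04, edgeR adjusted p = 2.5e-05). Its partner MAX was slightly higher (0.14, edgeR adjusted p = 0.032), a call lost under 5 of the 12 settings. MYCL1 had 2 and 5 reads in KDM1A shRNA against 58 and 59 in controls, and MYCN had 0 reads in each library and was not tested.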

How the data were processed

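Per the labels, libraries were made with a TruSeq kit from total RNA and sequenced as 100-base single-end reads. Each library's deposited file gives whole-number read counts by gene symbol, not scaled to depth; CASAVA 1.8.2, TopHat2 2.0.8b and HTSeq with hg19 are named in the submitters' processing notes. The 5 HTSeq summary lines, 38.9% to 41.0% of a file's total, were left out. Counts were tested with edgeR 4.0.16 (R 4.3.3) using the quasi-likelihood F-test, TMM and a design of group alone, after filterByExpr at its defaults (count of 10, total of 15). P-values were adjusted over all 14012 genes tested by Benjamini-Hochberg, with a threshold of 0.05. SE is the absolute log2 fold change over the square root of F, and CPM are TMM-scaled. On simulated data for this comparison (14012 genes, 200 changed) the test recovered 6% of 1.1-fold, 68% of 1.25-fold, 72% of 1.5-fold and 94% of 2-fold changes, with 5 false calls. Far fewer genes changed there than were called in the data (56.1%). The Benjamini-Hochberg threshold is stricter when few genes change, so these shares need not hold for the real comparison.

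Members, roles and lists were chosen with earlier results of these data known. Full values were given in each role for up to 4 called members with the smallest p (at most 3 per direction) and for POLR1A, UBTF, NCL, NPM1 and FBL, and of other lists for up to 3 genes. Genes outside that rule were chosen after their values were seen. Alternatives tried were upper quartile, RLE or no normalization beyond library size, a lower filter (total of 1 count) and a higher one (average of 5 CPM), limma-voom 3.58.1, DESeq2 1.42.0, the replicate number as a block and each library left out. Replicate libraries differed beyond counting noise (chi-square per degree of freedom 1.60 in KDM1A shRNA and 3.97 in controls). The annotation and the strand setting of the counting are not given in the sources used here, and reads of overlapping or near-identical genes may be lost or split. Positions are from GENCODE on GRCh37, and promoter sequences from RefSeq on GRCh38.p14, a different build used only for sequences.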

Additional observations from a re-analysis of the deposited data

How the results depend on the processing

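Under the 12 other settings, 11 of the 24 called members kept their call and direction, 13 lost it at least once, and 16 of the 42 uncalled members were called at least once. DESeq2 called 9 members higher and 5 lower (21.2%, against 43.6% of all genes tested). Leaving out each library in turn gave 8 to 20 higher, 4 to 16 lower and a median log2 fold change of -0.013 to 0.042. The median log2 fold change of the members was -0.00545 with upper quartile normalization. The only reversals among the single genes compared came without control shRNA replicate 1, for log2 fold change of NPM1 (0.065, and -0.089 without control shRNA replicate 2) and log2 fold change of MDN1 (0.21, and -0.19 without control shRNA replicate 2), neither of them called with all 4 libraries. With the replicate number as a block 14 members were higher and 10 lower (median 0.022), and 3978 genes were higher and 4164 lower. The numbers mark no stated pairing, and differences between replicates 1 and 2 correlated with r = 0.015 between groups across genes. Where a library was left out, the lone library of its group was assumed to vary like the other group. At this depth a member that was not called may still have changed by an amount within its interval. The cause of these differences between settings was not tested.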
